A study of Mus musculus with 36 samples.

Results

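Potassium channel genes were followed across both fractions and all 3 states of the series: every gene whose symbol starts with Kcn and that at least 1 probe set names alone, leaving out the noncoding RNA Kcnq1ot1 and the Kcnip genes, which encode calcium sensors. The rule gave 79 of 18193 measured genes, from 149 of 45101 probe sets, and each gene was read by its brightest probe set over the 36 arrays. By symbol prefix, 31 were grouped as voltage-gated pore-forming subunits, 15 as inward rectifiers and 12 as tandem-pore (K2P) channels. Another 8 (Kcnma, Kcnn, Kcnt and Kcnu) were grouped as calcium- or sodium-activated channels and 11 as auxiliary or regulatory subunits, and 2 are opposite-strand transcripts of Kcnmb4. These are group names and need not state how each member is gated.

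Potassium channels let potassium leave or enter a cell down its gradient and so set the resting potential, shape the action potential and return potassium after firing. Voltage-gated subunits open on depolarisation, inward rectifiers pass current near rest, tandem-pore channels give a steady leak, and auxiliary subunits change the gating or traffic of the pore. In myelinated tissue, Kcnj10, an inward rectifier of astrocytes and oligodendrocytes, is known for the uptake of potassium released by active axons, and Kcna1 and Kcna2 are known from the axon membrane beside the node of Ranvier.

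Messenger RNA was measured on expression arrays in the forebrain of 18 adult C57BL/6 mice. All were heterozygous for Cnp–eGFP-L10a, a tagged ribosomal protein driven by the promoter of Cnp, an oligodendrocyte gene, so every group carries the transgene and only cells that use this promoter are tagged. Ribosome-attached RNA that came down with the tag formed the bound arrays (oligodendrocytes), and the rest of the same forebrain, with neurons and other glia, the unbound arrays. Each fraction held 6 sleep deprived mice, awake for most of the dark period and then kept awake for 4 h in the light with unfamiliar objects; 6 waking mice, killed between 3 and 5 am in the dark after at least 70% of the previous 6 to 7 h awake; and 6 sleep mice, killed between 3 and 5 pm in the light after at least 75% of that window asleep. Waking mice thus differed from both other groups in time of day as well, since these were handled in the light; the labels give no hour of death for sleep deprived mice. The unit is the log2 signal of a probe set, the number of arrays limits the precision, and in such bulk samples fewer cells of a type and less RNA per cell cannot be told apart.

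A gene was called at a limma adjusted p (Benjamini-Hochberg over the 13924 genes tested) under 0.05. Array means had an SD of 0.0029 to 0.0099 log2 within a group, while the group means were 6.41 log2 in unbound sleep deprived, 6.34 in unbound waking and 6.40 in unbound sleep arrays (5.91, 5.93 and 5.92 in the bound arrays). Whether the arrays were normalized together or group by group is not stated, and every state contrast crosses groups. By sex-linked genes 3 animals (waking 3, waking 5 and sleep deprived 11) stood apart; counts of state calls are also given without them, and each call that is lost without them is named. All 7 oligodendrocyte markers tested were higher in the bound arrays, with the smallest p for Mag (+3.26 ± 0.05 log2, SE), Mobp (+2.39), Cnp (+1.24) and Opalin (+3.53), and all 8 neuron, 8 astrocyte and 6 microglia markers were lower. The mean of the neuron markers still lay at 10.2 to 10.7 log2 over the bound arrays, against 11.8 to 12.2 log2 over the unbound arrays. A set of 74 olfactory, vomeronasal and taste receptor genes served as a dim level: the 95th percentile of their means was 4.29 log2 (bound) and 4.92 log2 (unbound), here called background. Without a filter on low values, 21.6% to 27% of these 74 genes were called in the 6 state contrasts.

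By this measure 63 members lay above background in the bound arrays, 66 in the unbound arrays and 9 in neither. The share of all genes above background is not given here, so these counts have no such comparison. The filter on low values kept 66 of the 79 members, against 13924 of the 18193 genes measured. Of the members, 55 passed in both fractions (12631 of all genes), 3 only in the bound arrays (Kcna7, Kcnk13 and Kcnk16), 8 only in the unbound arrays (Kcna5, Kcne2, Kcne4, Kcnj13, Kcnk4, Kcnmb4os2, Kcns3 and Kcnt2) and 13 in neither. All 8 calcium- or sodium-activated genes were kept, against 28 of 31 voltage-gated, 12 of 15 inward rectifier, 10 of 12 tandem-pore and 7 of 11 auxiliary genes.

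Upstream sequences are shown for Kcne4, the member with the widest state differences in the bound arrays, and for Kcnj10 and Kcnk13. Kcnj10 had the largest bound enrichment among the members that passed the filter in both fractions. Kcnk13 passed only through the bound arrays, where it was high, so the size of its enrichment has no rank here. Each sequence is the 250 bases before the RefSeq transcription start (GRCm38.p6, plus strand), at chr1:78816661-78816910 for Kcne4, chr1:172340960-172341209 for Kcnj10 and chr12:99964249-99964498 for Kcnk13. Capitals mark CACGTG, the E-box letters that circadian factors are known to bind, or CCAAT on either strand.
Kcne4: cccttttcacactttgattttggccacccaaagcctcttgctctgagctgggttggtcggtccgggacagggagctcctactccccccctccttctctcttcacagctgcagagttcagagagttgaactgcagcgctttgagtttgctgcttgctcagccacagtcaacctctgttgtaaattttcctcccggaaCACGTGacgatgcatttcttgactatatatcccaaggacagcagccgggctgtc
Kcnj10: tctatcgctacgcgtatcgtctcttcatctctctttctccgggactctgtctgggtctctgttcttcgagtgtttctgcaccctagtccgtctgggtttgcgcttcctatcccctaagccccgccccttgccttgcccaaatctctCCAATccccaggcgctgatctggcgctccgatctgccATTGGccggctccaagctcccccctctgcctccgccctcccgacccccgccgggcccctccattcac
Kcnk13: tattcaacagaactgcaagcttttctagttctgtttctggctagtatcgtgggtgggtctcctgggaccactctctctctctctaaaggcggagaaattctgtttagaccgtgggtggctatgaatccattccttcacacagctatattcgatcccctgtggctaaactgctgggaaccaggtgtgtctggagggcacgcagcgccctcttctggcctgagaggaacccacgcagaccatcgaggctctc

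The Kcne4 window held CACGTG at −54 to −49 from the start, and the other printed windows held none. The RefSeq promoter table held 59 of the 79 members, with 79 promoters among them. On both strands CACGTG lay in 5 of these 79 windows (6.33%; in Kcnab1, in 2 windows, and in Kcne4, Kcnj2 and Kcnn4), against 6.02% of all 32851 promoters. CCAAT lay in 26.6% of the member windows, including the pair in Kcnj10, against 33.8% of all. The letters of the cAMP element TGACGTCA, the D-box (TTATGTAA or TTACGTAA) and the glucocorticoid element were in 0 member windows and in 1.55%, 0.931% and 0.00913% of all, and the heat shock element was in 1 member window, that of Kcnj6, and in 0.466% of all. These motifs were chosen with the state results known, none overlaps another in the printed windows, and a match describes letters only.

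Between the fractions, 4 members were higher in the bound arrays, 59 were lower and 3 were not called (Kcnu1, Kcnk7 and Kcnj2). Of all genes tested, 83.6% were called, 25.5% higher and 58.1% lower. The median difference, bound minus unbound, was −1.66 log2 over the 66 members and −0.35 log2 over all genes tested. Among the 55 members that passed in both fractions, 3 were higher and 49 lower, against 26.3% and 57.3% of the 12631 genes that passed in both; over all 79 without the filter, 6 were higher and 67 lower (82.7% of all genes called, 20.4% higher and 62.3% lower). Quantile normalization over all arrays moved the median of all genes to 0.08 log2. With it 11 members were higher and 49 lower: Kcna7, Kcnk16, Kcnk12, Kcnn4 and Kcnj4 changed sign, and Kcnu1 and Kcnk7 became higher. Kcnq1, Kcnh3, Kcng2, Kcnn1 and Kcnh2, lower as deposited, were then not called. The shares of all genes called with this normalization are not given here, so these counts have no such comparison.

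**Figure D1:**
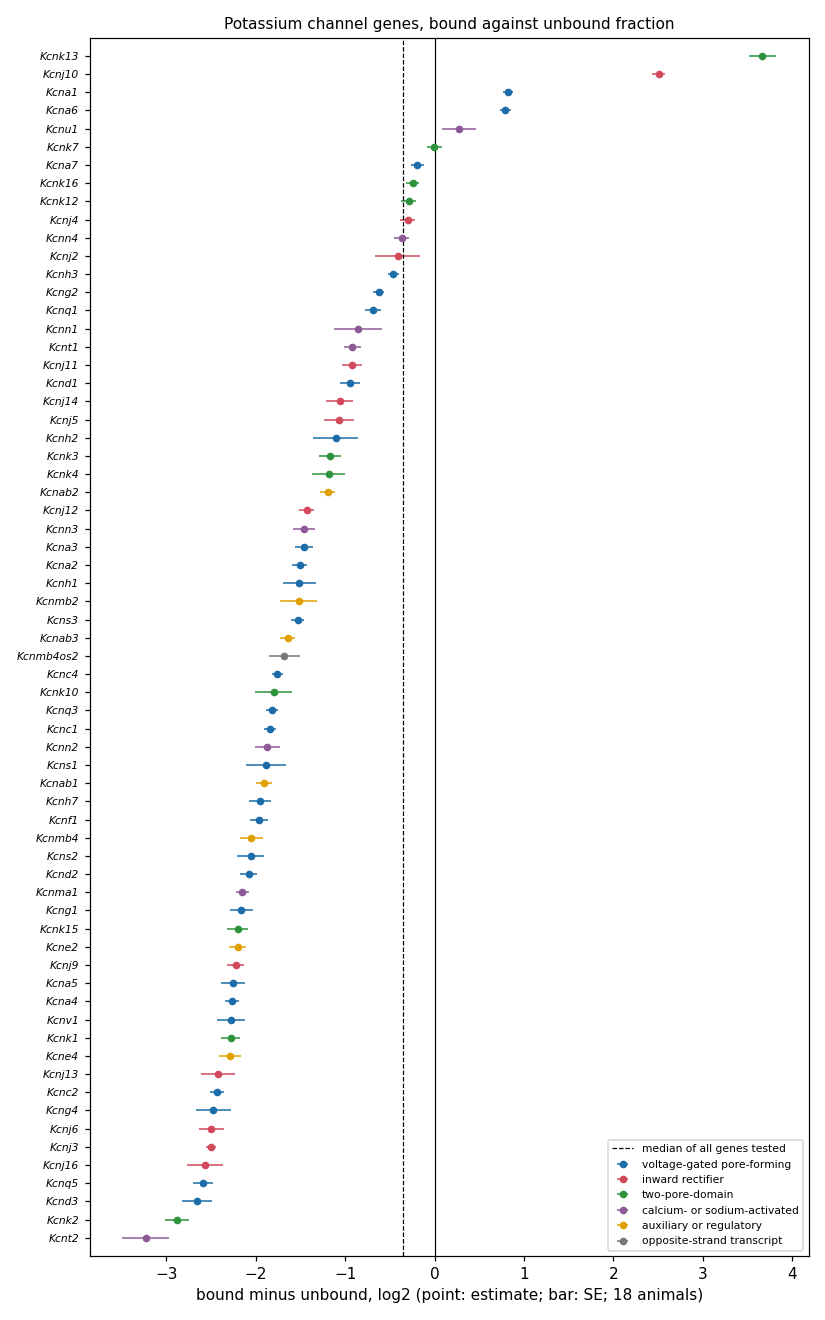
Bound minus unbound log2 difference of the 66 tested potassium channel genes (points, coloured by family; bars, SE over 18 animals), with the median of all genes tested as a dashed line. Kcnk13, Kcnj10, Kcna1 and Kcna6 lie right of 0, and most members lie left of the dashed line at −0.35.

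Kcnk13, a tandem-pore leak channel known in mouse as the main one of microglia, had 7.60, 8.62 and 9.08 log2 as lowest, median and highest of the 18 bound arrays, against 3.75, 5.02 and 6.02 log2 over the 18 unbound ones. Every bound array lay above every unbound array; Kcnk13 passed the filter on low values only through the bound arrays. It was higher in the bound arrays by 3.66 ± 0.15 log2 (SE, n = 18 animals, adjusted p = 5.78e-15). The unbound mean, 4.89 log2, is below background, and a second, dim Kcnk13 probe set at 1.93 log2 in bound and 2.17 log2 in unbound arrays had a difference of −0.24, so that the mean of both sets gave +1.71. All 6 microglia markers ran the other way: their mean was 4.96 log2 in bound sleep deprived, 5.43 in bound waking and 5.13 in bound sleep arrays, against 7.58, 7.23 and 7.58 log2 in the unbound arrays of the same states.

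Kcnj10 had 10.52, 10.76 and 11.00 log2 as lowest, median and highest bound values, against 7.88, 8.31 and 8.73 log2 in the unbound arrays, again with no overlap. The difference was +2.50 ± 0.07 log2 (adjusted p = 1.24e-17), or 5.68-fold. Its bound values spanned less than 0.5 log2 over all states. The 8 astrocyte markers, from the other cell type known for this channel, were all lower in the bound arrays, with a median of −2.12 log2. Kcnj16, whose product pairs with that of Kcnj10 in kidney and glia, was lower by 2.57 log2 (−2.57 ± 0.20, adjusted p = 2.21e-10), with a mean of 5.79 log2 (bound) and 8.36 log2 (unbound).

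Kcna1, a delayed rectifier of axons, ranged over 11.04, 11.42 and 11.77 log2 (bound), against 10.09, 10.62 and 10.92 log2 (unbound). Kcna6, of the same subfamily, ranged over 9.09, 9.29 and 9.93 log2 (bound), against 7.93, 8.53 and 8.95 log2 (unbound). Neither gene's fractions overlapped, and the differences were +0.82 ± 0.06 (adjusted p = 2.48e-11) and +0.79 ± 0.06 log2 (adjusted p = 2.41e-10). All 3 other Kcna1 probe sets were also higher in the bound arrays (+0.48 to +0.73); of the 2 others of Kcna6, one stood at +1.50 and a dim one at −0.68. Kcna2, the usual partner of Kcna1 in axonal channels, was lower by 1.51 log2 (−1.51 ± 0.08, adjusted p = 7.83e-13).

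**Figure D2:**
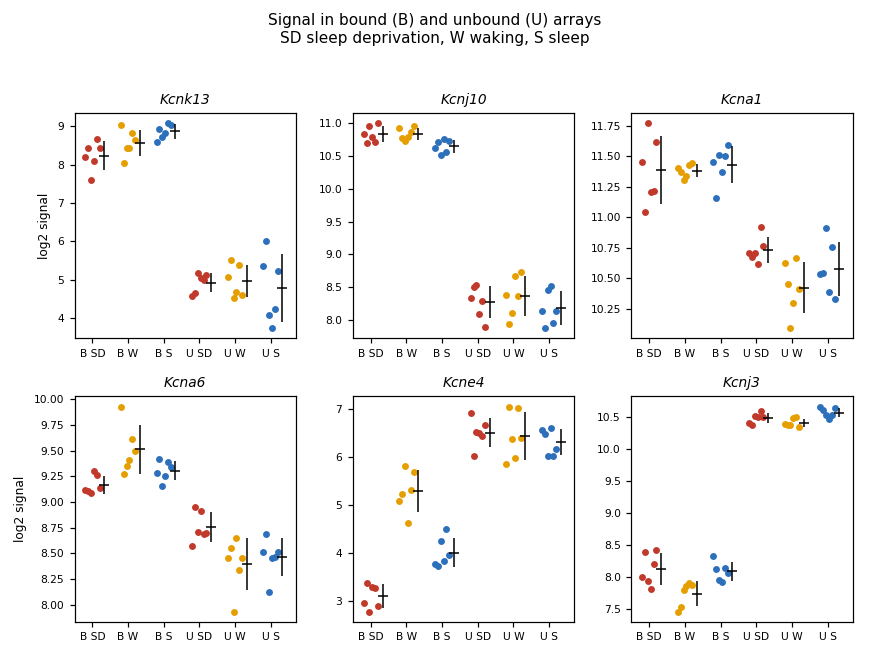
Log2 signal of 6 members in each array (points; bars, mean and SD of 6 animals) for bound (B) and unbound (U) arrays of sleep deprived (SD), waking (W) and sleep (S) mice. Kcnk13, Kcnj10, Kcna1 and Kcna6 are higher in all bound groups, Kcnj3 is lower in all, and Kcne4 is lower in all, with 3 separate bound groups and overlapping unbound groups.

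The members with the largest falls in the bound arrays came from several families. Among those that passed the filter in both fractions they were the mechano-sensitive leak channel Kcnk2 (−2.88 ± 0.13 log2), the A-type channel Kcnd3 (−2.66 ± 0.16), the M-current subunit Kcnq5 (−2.59 ± 0.11) and Kcnj16. Next were the G-protein-gated rectifiers Kcnj3 (−2.50 ± 0.06) and Kcnj6 (−2.50 ± 0.14), the silent modulatory subunit Kcng4 (−2.47 ± 0.19) and the fast-spiking channel Kcnc2 (−2.43 ± 0.08). The sodium-activated channel Kcnt2 and the epithelial rectifier Kcnj13 passed only through the unbound arrays, where they were high, and their bound means of 4.17 and 3.99 log2 lie below background, against 7.40 and 6.41 log2 in the unbound arrays, so the sizes of −3.23 and −2.42 log2 have no rank here. All 10 differences had this sign in 18 of 18 animals. Kcnj3 had the smallest error: 7.47, 7.95 and 8.43 log2 bound, against 10.35, 10.51 and 10.66 log2 unbound (adjusted p = 5.27e-19).

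By family, among the members that passed the filter in both fractions, 2 voltage-gated genes were higher and 23 lower of 25, with a median of −1.84 log2. Inward rectifiers had 1 higher and 9 lower of 11 (median −1.07), and tandem-pore channels 0 higher and 6 lower of 7 (median −1.80). Calcium- or sodium-activated genes had 0 higher and 6 lower of 7 (median −0.92), and auxiliary genes 0 higher and 5 lower of 5 (median −1.64). The other tested members each passed through 1 fraction: Kcnk13 was higher and the rest were lower in the bound arrays. Kcne4, a small subunit known to inhibit the channels of Kcnq1 and of some Kcna genes, was listed with Kcnj10 as an oligodendrocyte gene when the set was drawn up, but was lower in the bound arrays by 2.29 log2 (−2.29 ± 0.12, adjusted p = 3.83e-13), at a mean of 4.12 log2 (bound, below background) and 6.41 log2 (unbound), having passed the filter only through the unbound arrays.

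The members with the highest mean signal, which for different probe sets is no ranking of abundance, were Kcna1 (11.40 log2), Kcnj10 (10.78), Kcnc4 (9.37), the cytoplasmic subunit Kcnab2 (9.37) and Kcna6 (9.33) in the bound arrays. In the unbound arrays they were the large-conductance calcium-activated channel Kcnma1 (11.18 log2), Kcnc4 (11.13), Kcnj9 (10.89), Kcnc1 (10.66) and Kcna1 (10.58). Kcnc4, Kcnab2, Kcnma1, Kcnj9 and Kcnc1 were each lower in the bound arrays, by −1.76, −1.19, −2.15, −2.23 and −1.84 log2.

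Of 28 genes for potassium handling and channel partners, 21 were measured and 16 tested: 4 were higher in the bound arrays and 12 lower, against 25.5% and 58.1% of all genes tested. The chloride and potassium importer Slc12a2 was higher by 2.54 ± 0.06 log2 and the pump subunit Atp1b3 by 1.87 ± 0.04, while the calcium sensor Kcnip3 (−2.31 ± 0.07) and the secreted channel regulator Lgi1 (−2.23 ± 0.08) were lower. In the state contrasts and their fraction differences 0 to 1 of these 16 was called, against 4.27% to 14.4% of all genes tested.

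Across states, 20 of the 66 members were called in at least 1 of the 6 contrasts, 10 in the bound and 11 in the unbound arrays, with Kcna7 in both. These are 30.3%, 15.2% and 16.7% of the members, against 33.1%, 20.2% and 18.2% of all genes tested, so the members stood near the share of all genes. In the bound arrays 8 were called for sleep deprivation against sleep, 5 for sleep deprivation against waking and 1 for waking against sleep. Sleep deprivation minus sleep had 3 higher and 5 lower; of all genes tested, 14.4% were called, 7.53% higher and 6.87% lower. Sleep deprivation minus waking had 2 higher and 3 lower, against 5.01% of all genes, 2.69% higher and 2.32% lower. Waking minus sleep had 1 higher, against 9.47%, 4.68% higher and 4.79% lower. As shares of the 66 members the calls were 12.1%, 7.58% and 1.52%. The contrasts share their groups and are given side by side. Without the 3 animals set apart, 8 of the 8, 3 of the 5 and the 1 were still called, all with the same sign.

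**Figure D3:**
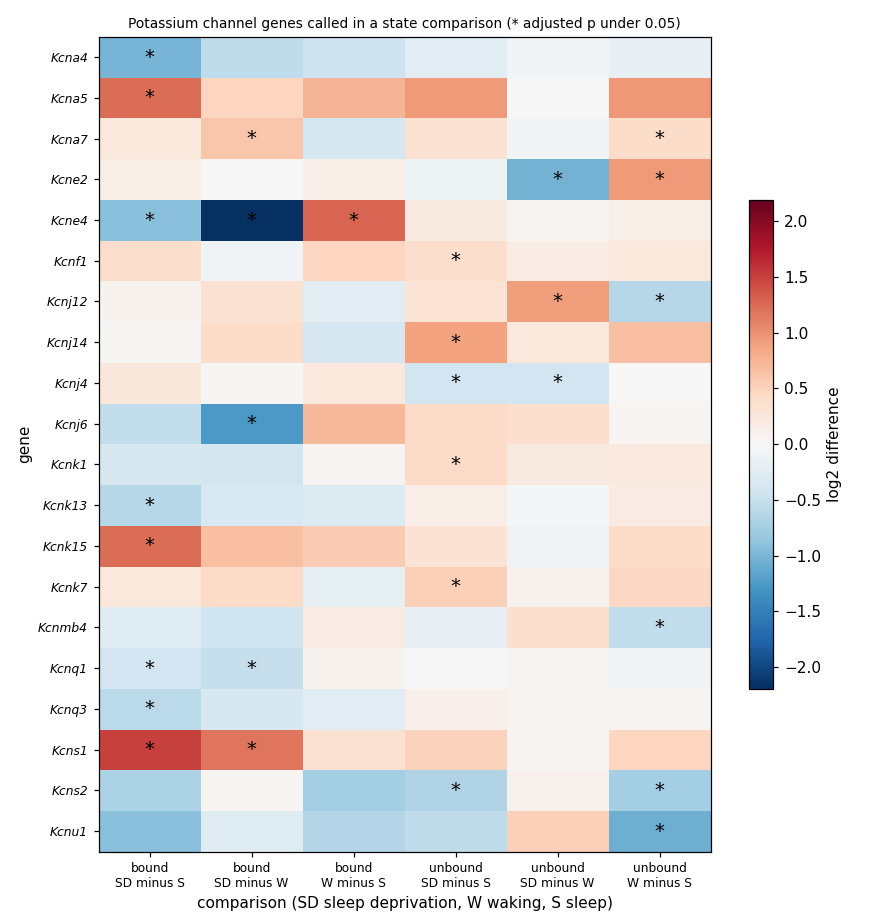
Log2 difference of the 20 members called in at least 1 state contrast (rows) in the 3 bound and 3 unbound contrasts (columns; red, higher and blue, lower in the first-named state; stars, adjusted p under 0.05). Kcne4 has the darkest cell, −2.19 in bound sleep deprivation minus waking, and is called in no unbound contrast.

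Kcne4 was the member called in all 3 bound contrasts. Its lowest, median and highest values were 2.77, 3.11 and 3.38 log2 in bound sleep deprived, 4.61, 5.26 and 5.81 in bound waking and 3.71, 3.89 and 4.50 in bound sleep arrays. The 3 groups did not overlap, with waking highest and sleep deprivation lowest. The differences were −2.19 ± 0.19 log2 for sleep deprivation minus waking (adjusted p = 6.84e-06), −0.91 ± 0.19 for sleep deprivation minus sleep (adjusted p = 0.0034) and +1.28 ± 0.19 for waking minus sleep (adjusted p = 0.00044). Leaving out the 3 animals, they were −2.02, −0.87 and +1.15 log2, all still called.

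Kcne4 sat near background in the bound arrays: 0 of 6 sleep deprived, 6 of 6 waking and 1 of 6 sleep arrays were above 4.29 log2. Among the 74 dim genes the largest fall was −0.79 log2 for sleep deprivation minus waking and −1.12 for sleep deprivation minus sleep, and the largest rise for waking minus sleep was +1.09. The mean of the dim genes was 3.00 log2 in bound sleep deprived, 3.01 in bound waking and 2.99 in bound sleep arrays. Of 4 mural cell markers, from another cell type that can hold Kcne4, 0 were called in the bound state contrasts. The mean of these markers ranged over 5.05 to 5.57 log2 in sleep deprived, 4.91 to 5.24 in waking and 5.24 to 5.64 in sleep arrays. The waking range lay below the sleep range without overlap, and the part of these markers in the result was not tested. In the unbound arrays, where Kcne4 lay well above background, it had a median of 6.50 log2 in sleep deprived, 6.38 in waking and 6.31 in sleep mice, and the groups overlapped. Its unbound differences were +0.20, +0.07 and +0.13 log2 (SE 0.21 each) for sleep deprivation minus sleep, sleep deprivation minus waking and waking minus sleep, and none was called (limma adjusted p = 0.630, 0.880 and 0.745).

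The state change of Kcne4 itself differed between the fractions. Bound minus unbound averaged −3.41 log2 in sleep deprived, −1.15 in waking and −2.30 in sleep mice. The difference of these differences was −2.26 ± 0.30 log2 for sleep deprivation minus waking (adjusted p = 0.0005), −1.11 ± 0.30 for sleep deprivation minus sleep (adjusted p = 0.03) and +1.15 ± 0.30 for waking minus sleep (adjusted p = 0.0288). Without the 3 animals the first stayed called (adjusted p = 0.00928) and the others did not (adjusted p = 0.0621 and 0.076); with quantile normalization the waking difference was not called either (+1.00, adjusted p = 0.0709).

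Kcnj10, in contrast with its fraction difference, was called in no state contrast. Its bound lowest, median and highest were 10.70, 10.81 and 11.00 log2 in sleep deprived, 10.73, 10.83 and 10.96 in waking and 10.52, 10.67 and 10.76 in sleep arrays, and the groups overlapped. The bound differences were +0.18 ± 0.07 for sleep deprivation minus sleep (adjusted p = 0.101), −0.01 ± 0.07 for sleep deprivation minus waking (adjusted p = 0.963) and +0.19 ± 0.07 log2 for waking minus sleep (adjusted p = 0.106). In the unbound arrays they were +0.10, −0.09 and +0.19 ± 0.16 log2.

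In sleep deprivation against sleep, 3 other bound members rose. Kcns1, a silent subunit that modifies Kcnb channels, had 4.85, 5.36 and 6.29 log2 as lowest, median and highest in sleep deprived arrays, against 3.73, 3.91 and 4.15 in sleep arrays, with no overlap (+1.49 ± 0.28, adjusted p = 0.00141). It was also higher than in waking mice (3.44, 3.92 and 5.33 log2), by 1.16 ± 0.28 (adjusted p = 0.0205), although these groups overlapped. Kcnk15, a tandem-pore subunit that gives no current alone, had 4.97, 5.42 and 6.69 log2 in sleep deprived and 4.00, 4.27 and 4.88 in sleep arrays, without overlap (+1.22 ± 0.25, adjusted p = 0.00308).

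Kcna5, a delayed rectifier, had 4.16, 5.05 and 5.66 log2 in bound sleep deprived arrays, against 2.72, 4.00 and 4.19 in sleep arrays, with overlap at the edge (+1.22 ± 0.27, adjusted p = 0.00449). The sleep groups of Kcns1 and Kcna5 lay wholly below background and that of Kcnk15 partly. Among the 74 dim genes the largest rise in this contrast was +1.32 log2, above the rises of Kcna5 and Kcnk15 and below that of Kcns1. All 3 were lower in the bound than in the unbound arrays, by −1.89, −2.25 and −2.20 log2.

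Kcna4, Kcnq3, Kcnk13 and Kcnq1 fell in bound sleep deprived against sleep arrays, besides Kcne4. Kcna4, an A-type channel of axons and terminals, had 6.61, 7.22 and 7.76 log2, against 7.59, 8.35 and 8.50 in sleep arrays, with a slight overlap, and fell by 1.01 log2 (−1.01 ± 0.19, adjusted p = 0.00145). Kcnq3, an M-current subunit that holds firing in check, had 7.53, 8.13 and 8.41 log2, against 8.54, 8.60 and 8.96 in sleep arrays, with no overlap (−0.59 ± 0.17, adjusted p = 0.025). The second probe set of each had the same sign, at −0.70 and −0.25 log2; with the sets averaged Kcnq3 was not called (−0.42, adjusted p = 0.0518).

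The change of Kcna4 and of Kcnq3 in this contrast also differed between the fractions. Bound change minus unbound change was −0.76 ± 0.19 log2 (adjusted p = 0.0195) and −0.71 ± 0.16 (adjusted p = 0.0128). Both fraction differences stayed called without the 3 animals. Averaging all probe sets of a gene gave −0.43 (adjusted p = 0.19) and −0.49 log2 (adjusted p = 0.0516). Beside them, 1 of the 8 neuron markers, the glutamate transporter gene Slc17a7, fell in the same bound contrast (−1.0 ± 0.33) and 0 rose. The mean of the 8 ranged over 10.16 to 10.65 log2 in bound sleep deprived and 10.28 to 10.72 in bound sleep arrays. In the fraction difference Slc17a7 was called too (−1.54 ± 0.39, adjusted p = 0.0214). The other neuron markers, from −0.37 (Rbfox3) to +0.05 log2 (Stmn2), were not. The part of these markers in the result was not tested.

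Kcnk13 had 7.60, 8.31 and 8.66 log2 in bound sleep deprived arrays, against 8.59, 8.87 and 9.08 in sleep arrays, with a slight overlap, and fell by 0.63 log2 (−0.63 ± 0.18, adjusted p = 0.0221). The mean of its probe sets gave −0.24 log2, not called (adjusted p = 0.21); the second set, below background, stood at +0.15. Of 6 microglia markers, P2ry12 fell (−1.06 ± 0.30) and the others were not called; their mean ranged over 4.78 to 5.45 log2 in sleep deprived and 4.70 to 5.36 in sleep arrays, and their part in the result was not tested. Kcnq1, a delayed rectifier best known from heart and inner ear, had 4.67, 4.81 and 5.18 log2 in sleep deprived, 5.08, 5.33 and 5.67 in waking and 5.10, 5.26 and 5.39 in sleep arrays. It fell against sleep (−0.42 ± 0.12, adjusted p = 0.0268) and against waking (−0.50 ± 0.12, adjusted p = 0.0212), the second not called without the 3 animals (adjusted p = 0.159).

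**Figure D4:**
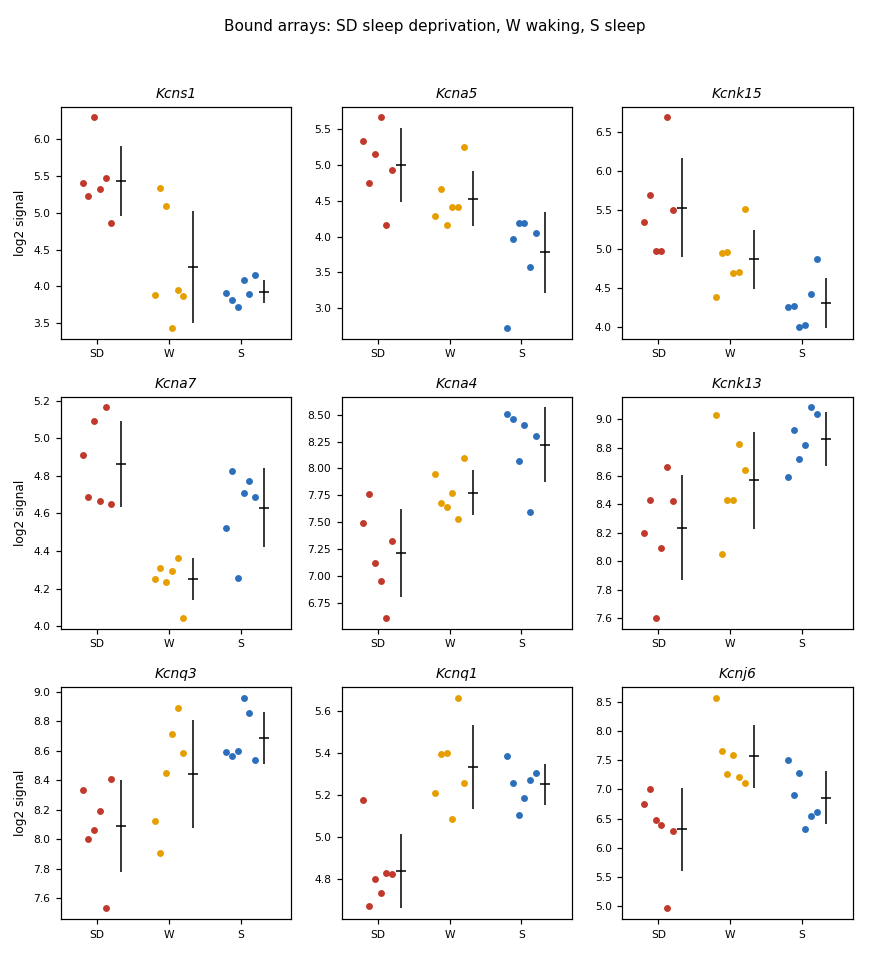
Log2 signal of 9 members in the bound arrays of sleep deprived (SD), waking (W) and sleep (S) mice (points, animals; bars, mean and SD of 6). Kcns1, Kcna5 and Kcnk15 are higher and Kcna4, Kcnk13, Kcnq3 and Kcnq1 lower in SD than in S, while Kcnj6 is lowest and Kcna7 highest in SD against W.

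Sleep deprivation against waking also separated Kcnj6 and Kcna7 in the bound arrays. Kcnj6, a G-protein-gated rectifier of neurons, had 4.96, 6.44 and 7.01 log2 in sleep deprived, against 7.11, 7.42 and 8.57 in waking arrays, without overlap (−1.25 ± 0.31, adjusted p = 0.0236). That value rests on the brightest of 5 probe sets: the others gave −0.58 to +0.74 log2, the mean of all 5 was not called (−0.24, adjusted p = 0.44), and without the 3 animals the adjusted p was 0.0683. Kcna7, a voltage-gated channel best known from muscle, had 4.65, 4.80 and 5.16 log2 in sleep deprived, against 4.04, 4.27 and 4.36 in waking arrays, without overlap (+0.61 ± 0.13, adjusted p = 0.00876). Its signal lay within 1 log2 of background throughout.

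In the unbound arrays 6 members were called for sleep deprivation against sleep, 3 for sleep deprivation against waking and 6 for waking against sleep. Sleep deprivation minus sleep had 4 higher and 2 lower; of all genes tested, 7.82% were called, 4.65% higher and 3.17% lower. Sleep deprivation minus waking had 1 higher and 2 lower, against 9.94% of all genes, 8.45% higher and 1.49% lower. Waking minus sleep had 2 higher and 4 lower, against 7.21%, 1.49% higher and 5.72% lower. Without the 3 animals 3 of the 6, 2 of the 3 and 2 of the 6 were still called, with the same signs. The split of higher and lower calls moved with quantile normalization within the fraction: sleep deprivation minus sleep had 4 higher and 2 lower as deposited and 2 and 3 after it, and waking minus sleep had 2 higher and 4 lower as deposited and 3 and 2 after it. The shares of all genes called after it are not given here, so these counts describe the processing only. The median of all genes was +0.11 log2 for sleep deprivation minus waking and −0.09 for waking minus sleep, and lay within 0.01 of 0 after that normalization.

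Kcnj12, a strong inward rectifier, was lowest in waking. Its lowest, median and highest unbound values were 7.86, 7.99 and 8.08 log2 in sleep deprived, 6.55, 7.09 and 7.36 in waking and 7.31, 7.69 and 8.12 in sleep arrays. Waking did not overlap sleep deprivation and overlapped sleep slightly. The differences were +0.92 ± 0.15 log2 for sleep deprivation minus waking (adjusted p = 0.00118) and −0.62 ± 0.15 for waking minus sleep (adjusted p = 0.0175), the second not called without the 3 animals (−0.54, adjusted p = 0.0625) or with the number as a block (adjusted p = 0.0573).

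Kcne2, an auxiliary subunit known from the choroid plexus and stomach, was highest in waking, with 6.32, 6.77 and 7.05 log2, against 5.36, 5.60 and 6.22 in sleep deprived and 5.33, 5.80 and 6.20 in sleep arrays. Waking overlapped neither other state. Sleep deprivation minus waking was −1.04 ± 0.20 log2 (adjusted p = 0.00352) and waking minus sleep +0.93 ± 0.20 (adjusted p = 0.00768), or +0.78 (adjusted p = 0.0626) without the 3 animals and adjusted p = 0.0575 with the number as a block. The mean of 6 choroid plexus markers was 7.49 log2 in sleep deprived, 7.33 in waking and 7.33 in sleep arrays. Of the 5 tested, Ttr was called in waking against sleep, with the opposite sign to Kcne2 (−0.19 ± 0.05). Clic6 (−0.40 ± 0.25) and Folr1 (−0.23 ± 0.28) also had the opposite sign and were not called. Cldn2 (+0.65 ± 0.37, adjusted p = 0.295) and Kl (+0.52 ± 0.29, adjusted p = 0.296) had the sign of Kcne2 and were not called. The mean of Kl was 6.98 log2 in waking, 6.46 in sleep and 6.62 in sleep deprived arrays. The part of these markers in the result was not tested.

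Kcnj4 and Kcnj14, inward rectifiers like Kcnj12, were called as well. Kcnj4 had 6.32, 6.41 and 6.71 log2 in unbound sleep deprived, 6.74, 6.89 and 7.01 in waking and 6.66, 6.86 and 7.06 in sleep arrays, so that sleep deprivation was lowest. It fell by 0.43 log2 against waking (−0.43 ± 0.12, adjusted p = 0.0305) and by 0.41 against sleep (−0.41 ± 0.12, adjusted p = 0.0395), neither called without the 3 animals (adjusted p = 0.122 and 0.0776). Kcnj14 was higher in sleep deprivation than in sleep by 0.88 ± 0.25 log2 (adjusted p = 0.0388; 5.27, 6.16 and 7.01 against 4.85, 5.22 and 6.12), and 0.71 without them (adjusted p = 0.0842).

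Kcns2, a silent subunit, was highest in sleep: it had 8.12, 8.54 and 9.08 log2 in sleep deprived and 8.17, 8.46 and 8.76 in waking, against 8.96, 9.20 and 9.49 in sleep arrays. Only waking was free of overlap with sleep. It fell by 0.65 log2 in sleep deprivation (−0.65 ± 0.16, adjusted p = 0.014) and by 0.75 in waking (−0.75 ± 0.16, adjusted p = 0.00709), and both stayed called without the 3 animals, while averaging its probe sets ended the first (adjusted p = 0.0838). Kcnf1, another silent subunit, had 9.86, 10.24 and 10.27 log2 in sleep deprived arrays, against 9.58, 9.71 and 10.05 in sleep arrays (+0.39 ± 0.11, adjusted p = 0.0327), or +0.27 with its probe sets averaged (adjusted p = 0.376).

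Kcnk1, a leak channel of neurons and glia, had 10.34, 10.42 and 10.58 log2 in unbound sleep deprived arrays, against 9.55, 10.02 and 10.43 in sleep arrays (+0.42 ± 0.12, adjusted p = 0.0337). Its groups overlapped, as did those of Kcnf1, and both calls held without the 3 animals but not with quantile normalization within the fraction (adjusted p = 0.0585 for Kcnk1 and 0.0574 for Kcnf1).

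**Figure D5:**
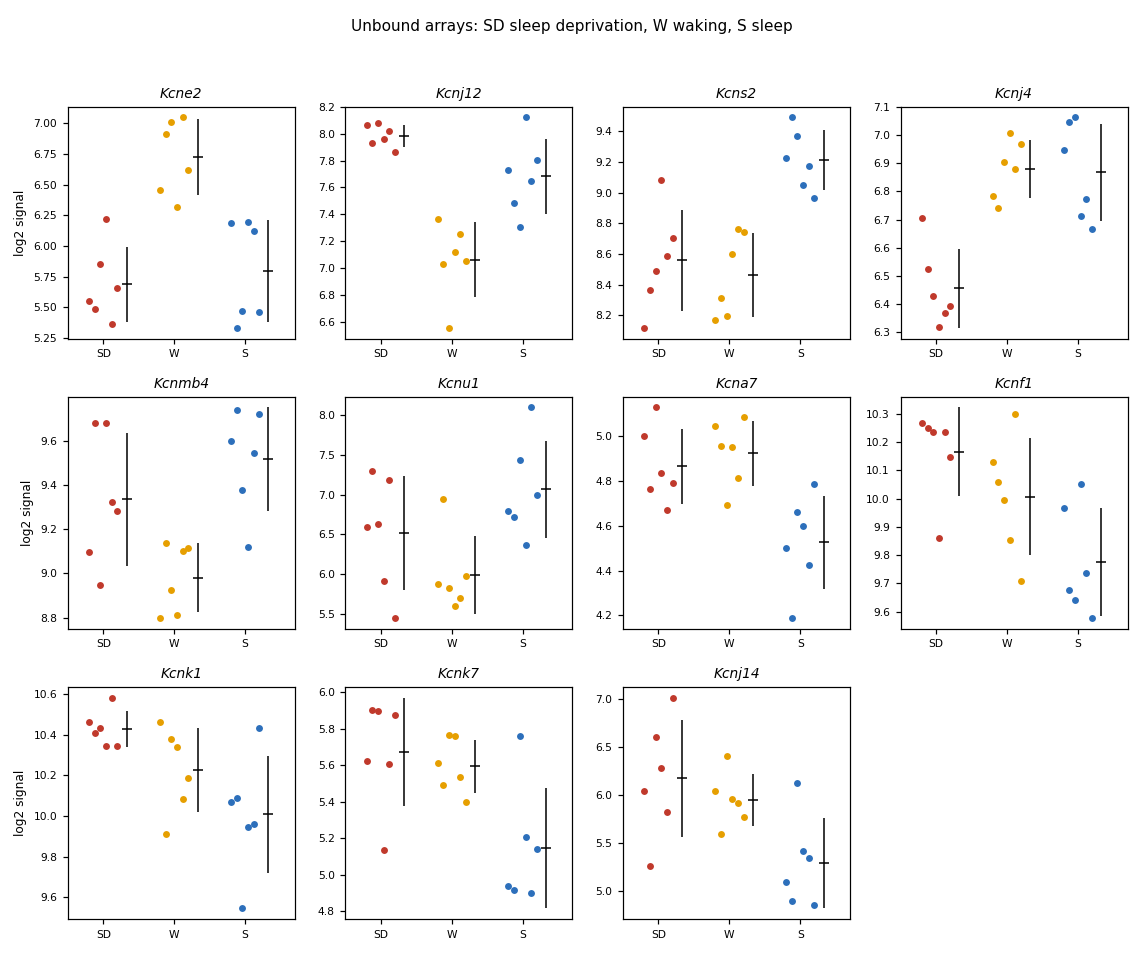
Log2 signal of the 11 members called in an unbound state contrast, in unbound arrays of sleep deprived (SD), waking (W) and sleep (S) mice (points, animals; bars, mean and SD of 6). Waking is highest for Kcne2 and lowest for Kcnj12, and sleep is highest for Kcns2.

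Of the remaining unbound calls, the calcium-activated channel's brain subunit Kcnmb4 fell in waking against sleep by 0.53 log2 (−0.53 ± 0.14, adjusted p = 0.0232), and Kcnu1, a channel known from sperm, by 1.08 (−1.08 ± 0.32, adjusted p = 0.0486). Kcna7 was higher in waking by 0.40 ± 0.11 log2 (adjusted p = 0.0387) and Kcnk7 in sleep deprivation by 0.53 ± 0.16 (adjusted p = 0.0465). Kcna7 passed the filter only through the bound arrays, and its mean over the unbound arrays, 4.77 log2, lay below background. Leaving out the 3 animals, Kcna7 was still called (adjusted p = 0.0438; with the number as a block, 0.102), while Kcnmb4 (0.0733), Kcnu1 (0.125) and Kcnk7 (0.099) were not. Quantile normalization within the fraction also ended the calls of Kcnmb4 (0.0624) and Kcnu1 (0.0845), and Kcnu1 was also lost with the number block (0.0786) and without the intensity trend (0.0569). The groups of each gene overlapped.

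The test of unequal state change between the fractions called 4 members for sleep deprivation minus sleep, 7 for sleep deprivation minus waking and 2 for waking minus sleep. Sleep deprivation minus sleep had 0 higher and 4 lower; of all genes tested, 6.24% were called, 3.03% higher and 3.21% lower. Sleep deprivation minus waking had 2 higher and 5 lower, against 4.27% of all genes, 1.09% higher and 3.17% lower. Waking minus sleep had 1 higher and 1 lower, against 5.34%, 3.94% higher and 1.4% lower. With all arrays quantile-normalized together, waking minus sleep had 0 higher and 2 lower calls, and 1 of each as deposited. The share of all genes under that setting is not given here, so this count describes the processing only. Besides Kcne4, Kcna4 and Kcnq3, the fast-spiking channel Kcnc2 was called for sleep deprivation minus sleep (−0.71 ± 0.19) and minus waking (−0.68 ± 0.19), and the immune-cell and neuronal channel Kcna3 for sleep deprivation minus waking (−1.13 ± 0.25). Neither gene was called in a bound or unbound contrast alone: Kcnc2 stood at −0.51 log2 bound and +0.20 unbound for sleep deprivation minus sleep, and Kcna3 at −0.67 bound and +0.47 unbound for sleep deprivation minus waking. Neither Kcnc2 call held without the 3 animals (adjusted p = 0.0599 and 0.0869), and the second was also lost with quantile normalization over all arrays (−0.54, adjusted p = 0.105). For sleep deprivation minus waking the 8 neuron markers ran from −0.65 (Rbfox3, called, adjusted p = 0.00652) to −0.03 log2 (Nefl). The 8 astrocyte markers ran from −1.66 (Gfap, not called) to −0.07 log2 (Aqp4), with Gjb6 called (−1.32, adjusted p = 0.00629). The 7 oligodendrocyte markers ran from −0.50 (Myrf) to −0.06 log2 (Cnp). The part of these markers in the member results was not tested.

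Kcnj6 had the second largest fraction difference of the members, −1.62 ± 0.33 log2 for sleep deprivation minus waking (adjusted p = 0.0094), though −0.39 over the mean of its probe sets. Kcne2 stood at +1.03 ± 0.23 and Kcna6 at −0.70 ± 0.15 in that contrast. For Kcna6, bound minus unbound was +0.42 log2 in sleep deprived and +1.12 in waking mice, and the contrast over the mean of its probe sets was −0.26 (adjusted p = 0.531). Kcna7 was called in waking minus sleep (−0.78 ± 0.18) and sleep deprivation minus waking (+0.67 ± 0.18). In waking minus sleep its bound change was −0.38 log2 and its unbound change +0.40, with an unbound mean below background. Without the 3 animals 2 of the 4, 3 of the 7 and 1 of the 2 were still called, and every sign held. In sleep deprivation minus waking the calls of Kcna6 (adjusted p = 0.105), Kcna7 (0.0729) and Kcne2 (0.147) were then lost, besides that of Kcnc2.

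In all, 46 of the 66 members (69.7%, against 66.9% of all genes tested) were called in no state contrast, among them Kcnj10, Kcna1 and Kcna6. The other probe sets of a member gave the same sign as the one used in 62 of 64 cases for members called between the fractions. For members called in a state contrast they did so in 2 of 3 cases for bound sleep deprivation minus sleep. For bound sleep deprivation minus waking it was 3 of 4 cases, and all 4 are probe sets of Kcnj6. In the unbound arrays it was 3 of 3 for sleep deprivation minus sleep and 1 of 1 for waking minus sleep. For members not called in the same contrasts the same sign came in 31 of 61, 36 of 60, 35 of 61 and 31 of 63 cases. A p that misses the threshold does not show that these genes held constant.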

How the data were processed

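The authors deposited a log2 signal for each probe set; RMA is named in the submitters' processing notes, without a version, and no normalization was added. Of 45101 probe sets, 34945 named 1 gene and 932 several. All 79 members matched the RefSeq gene table by Entrez identifier; the promoter table is separate and holds fewer. Families followed symbol prefixes, and the Kcnmb4 opposite-strand transcripts were set apart afterwards. Members, lists and motifs were chosen with earlier results of these data known.

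A gene was tested if its mean passed the 40th percentile of probe sets (4.47 log2 bound, 5.18 log2 unbound) in either fraction. limma 3.58.1 with an intensity trend (R 4.3.3; tables were read with the data.table package, version 1.17.8) tested the state contrasts in a group-means model of the 18 arrays of a fraction. It tested the fraction contrast and its state differences on the bound minus unbound difference per animal. Calls used Benjamini-Hochberg adjusted p under 0.05, and the tests were checked on simulated data. The pairing comes from the labels, where an animal's fractions share a number; the deviations of its arrays from their group means correlated at −0.0032 to 0.0848. P-values rest on the spread between animals in the deposited values. They do not account for an offset between groups, should these have been normalized apart, which is not stated.

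The named members were the 10 largest called differences in each direction, all Kcnj10 and Kcne4 results, the 5 brightest members of each fraction, and up to 4 called genes of each partner or marker list by smallest p. Kcna2, some partner and marker genes, and members whose sign or call moved under an alternative were named after their values were seen. Alternatives were quantile normalization, no filter, the mean of all probe sets, no trend, no replicate block or a number block, and leaving out 3 animals. Promoter windows were searched in Python 3.11.15; figures used numpy 2.4.6, pandas 2.3.3 and matplotlib 3.10.9.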

Additional observations from a re-analysis of the deposited data

Results flagged for a closer look

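In 6 of the 72 groups of 6 arrays examined, for members named in the state contrasts, the highest or lowest animal stood far from the rest by Dixon's ratio; chance gives about 1 in 20. In bound arrays these were Kcnq1 in sleep deprived animal 6 (5.18 log2, next 4.83), Kcnj6 in waking animal 1 (8.57, next 7.66) and Kcnj6 in sleep deprived animal 10 (4.96, next 6.29). In unbound arrays they were Kcnk7 in sleep animal 3 (5.76, next 5.21), Kcnf1 in sleep deprived animal 9 (9.86, next 10.15) and Kcnu1 in waking animal 2 (6.94, next 5.98). Each lies on the side that makes the group's difference smaller for Kcnq1, Kcnk7, Kcnf1 and Kcnu1, and larger for both Kcnj6 values.

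State changes that differed between the fractions by the test of the difference itself were, for sleep deprivation minus sleep, Kcnc2 (−0.71 log2), Kcnq3 (−0.71), Kcna4 (−0.76) and Kcne4 (−1.11). For sleep deprivation minus waking they were Kcne2 (+1.03), Kcna7 (+0.67), Kcnc2 (−0.68), Kcna6 (−0.70), Kcna3 (−1.13), Kcnj6 (−1.62) and Kcne4 (−2.26). For waking minus sleep they were Kcne4 (+1.15) and Kcna7 (−0.78).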

How the results depend on the processing

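Between the fractions 60 to 73 members were called under every alternative, against 63. This count and those below stand without the share of all genes under the same setting. They describe the processing and are no result about the members. Without the filter, 21.6% to 27% of the 74 dim genes were called in the 6 state contrasts. Without a filter on low values the member calls were 14 for bound sleep deprivation minus sleep, 11 for bound sleep deprivation minus waking, 4 for bound waking minus sleep, 10 for unbound sleep deprivation minus sleep, 5 for unbound sleep deprivation minus waking, and 10, 11 and 4 for the fraction differences of sleep deprivation minus sleep, sleep deprivation minus waking and waking minus sleep; all 79 members were then tested. With the mean of all probe sets they were 5 for bound waking minus sleep, 4 for its fraction difference and 6 for unbound sleep deprivation minus waking. Without the intensity trend bound waking minus sleep had 2. Without the 3 animals bound sleep deprivation minus waking had 3, its fraction difference 3, unbound sleep deprivation minus sleep 3 and unbound waking minus sleep 2; fewer animals were tested.

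With the number as a replicate block, which pairs no animals between states, bound waking minus sleep had 4 calls; unbound waking minus sleep had 4 against 6, of which 2 were shared, since Kcna7, Kcne2, Kcnj12 and Kcnu1 lost theirs. Same-numbered arrays correlated at −0.0009 to 0.0868 in the bound arrays, and 4 of 6 matched best with their own number, against 3 of 6 in the unbound arrays. Without the animal as a replicate block the fraction difference of waking minus sleep had 4 calls, and Kcna3 (adjusted p = 0.0519) and Kcnc2 (0.05 and 0.0703) lost theirs.

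Between the fractions, Kcna7, Kcnk16, Kcnk12, Kcnn4 and Kcnj4 were called with opposite signs as deposited and with quantile normalization over all arrays. The state values that changed sign were uncalled: Kcne4 in unbound sleep deprivation minus waking (−0.028 with quantile normalization), and the fraction differences of Kcnj10 in sleep deprivation minus sleep (−0.024 without the 3 animals) and waking minus sleep (−0.11 with quantile normalization, −0.038 without the 3 animals). The cause was not tested. Of 62 named calls, 45 held without the 3 animals and 53 with the mean of all probe sets. Dim signal limits the members near background most.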
